A study of Mus musculus with 6 samples.

Results

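DNA replication and mitosis genes were examined in mouse T cells cultured with macrophage supernatant. The 45 genes were taken by symbol from the 55401 genes of the count table: 26 act at the G1/S transition or in S phase and 19 in G2 or mitosis. The rule uses gene names and no measured value, although the genes and their roles were chosen with earlier results of these data known. All 45 symbols were found once. Of these, 44 had enough reads to be tested between the groups. E2f2, which encodes an activating E2F transcription factor, had 0 counts in each of the 6 libraries, where a floor of 3 counts in a library lies at 0.122 to 0.189 CPM (a count scaled by its library size), and it was not tested.

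The study asked how the soluble factors released by macrophages that had met the neurofilament light chain of axons (NFL) act on CD8+ T cells. Bulk RNA sequencing was carried out on 3 samples cultured with NFL-activated macrophage supernatant and 3 cultured with control macrophage supernatant from untreated macrophages. Per the deposited design text, macrophages were grown from CD11b+ spleen cells with 50 ng/mL M-CSF for 7 days in both groups. By the same text, NFL prepared by freezing and thawing sciatic nerve lysate was added at 5 µg/mL for 24 h in one of them. The paper's co-culture methods give another NFL dose. Its methods name a commercial source for the NFL given to mice, and list frozen and thawed sciatic nerve as a separate treatment. Whether the paper's cultures used the same preparation is not stated. Filtered supernatant made up 50% of the T cell medium, which held 2% serum, in both groups. The T cells came from mouse spleen by CD8a bead selection, while the sample labels name them only as T cells. Strain, age and the T cell stimulus are not given in the labels. Nothing states that the 3 samples of a group came from separate cultures or animals, so p-values measure the spread between these samples, which may be technical.

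Total counts were 15843045 to 24639756 per library, with the control group holding the deepest and the shallowest library. The scaling factors of the libraries (TMM, trimmed mean of M values) lay between 0.9936 and 1.007. Between 2 libraries of the same group, the chi-square of counts per degree of freedom, a variance relative to that of sampling noise, was 1.89 to 3.41. None of these libraries looked like a library entered more than once. The T cell markers summed to 1740 to 1840 CPM in the control and 1680 to 1770 CPM in the NFL libraries, mostly from Thy1, while Cd2 and Cd5 were at 0 in all 6. Lck, Cd3d and Cd3g were low, at means of 5.20, 3.63 and 8.04 CPM in the control and 3.96, 4.17 and 7.02 CPM with NFL. Cd3e averaged 61.0 and 50.2 CPM and Cd247 45.5 and 40.7 CPM. Natural killer markers summed to 459 to 482 CPM in the control and 441 to 460 CPM in the NFL libraries, mostly from Eomes, with Ncr1 at 0. Cd8a and Cd8b1 together reached only 4.59 to 5.98 CPM, below the 23.3 to 27.6 CPM of Cd4. The transcripts that define CD8+ T cells were thus low in cells that the design text describes as selected by CD8a. Macrophage markers were near 0: 6 of 10 had no count in any library and the 10 summed to at most 0.325 CPM. Of 30 markers of T, CD8, CD4, macrophage, B and natural killer cells, Cd3e (log2 fold change -0.28) and Klrb1c (-0.51) passed the test between groups, and their part in the results on the cell cycle genes was not tested.

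A cell that leaves G1 first activates cyclin D with Cdk4 or Cdk6 and then cyclin E with Cdk2, which frees the E2F transcription factors. E2F targets include the genes that load the MCM helicase on origins, copy DNA and make deoxynucleotides. Later, cyclin A and cyclin B with Cdk1 drive mitosis, Aurora and Polo kinases build the spindle, the kinetochore checkpoint holds anaphase, and the anaphase-promoting complex (APC/C) ends mitosis by tagging cyclin B and securin for destruction. T cells at rest in the spleen express little of this machinery, and activated T cells that divide express much more of it.

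Few of the replication and mitosis genes differed between the groups. Ccne1, Ccne2, Rrm2 and Top2a rose and Ccnb2 fell with NFL-activated macrophage supernatant, which made 5 of the 44 genes tested (11.4%) past an adjusted p of 0.05 in edgeR's quasi-likelihood test. Over all 14082 genes tested, 7.00% passed (986), with 3.47% higher (489) and 3.53% lower (497). Among the 6475 genes with a mean of at least 30 CPM, where all 44 lie, 11.9% passed, with 6.29% higher and 5.58% lower. The share of these genes past the test was therefore near that of other genes at their level. Scaled by library size alone, 972 genes passed over the whole table, 372 higher and 600 lower, and 4 of the replication and mitosis genes, 3 higher and 1 lower.

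The differences were small in size. Of the 44 genes, 40 had a log2 fold change between -0.1 and 0.1, and the 95% intervals of all 44 lay between -14.9% and 26.8%. The median log2 fold change was 0.028, against -0.0010 over all genes tested and 0.0059 over the genes of at least 30 CPM. A positive log2 fold change was found for 29 of the 44 and a negative one for 15, where 49.6% of all genes and 52.3% of those of at least 30 CPM were positive. Replicates were close, with a median coefficient of variation within groups of 2.67% and a highest of 6.73% for Cdt1. The libraries of the 2 groups did not overlap for 12 genes that were higher and 3 that were lower with NFL. In the whole table such separation was found for 22.7% of the genes (11.5% higher and 11.2% lower), and for 30.4% of those of at least 30 CPM (16.8% and 13.6%). In bulk samples, fewer cells of a type and less RNA per cell cannot be told apart.

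**Figure D1:**
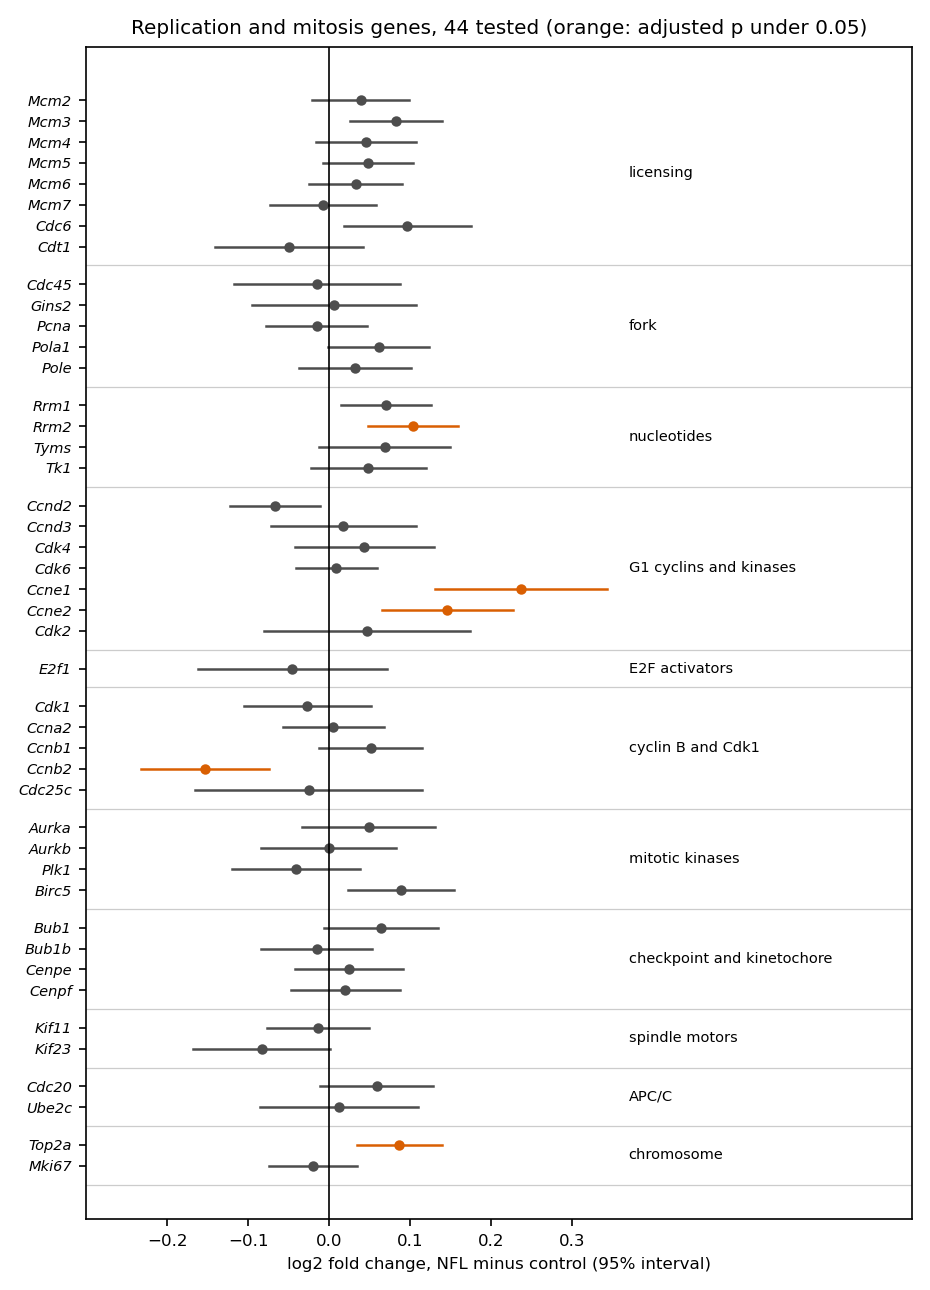
Log2 fold change (NFL minus control, horizontal axis) of the 44 genes tested, grouped by role, with points for the edgeR estimate and bars for the 95% interval from 3 samples a group. Orange marks the 5 genes with an adjusted p under 0.05, of which Ccnb2 alone lies below 0, and all intervals lie between -0.23 and 0.34.

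The G1/S and the G2/M genes were then taken apart. Of the 25 G1/S genes tested, 3 passed, all higher, with a median log2 fold change of 0.044 and 19 positive and 6 negative values. Of the 19 G2/M genes, 2 passed, 1 higher and 1 lower, with a median of 0.0051 and 10 positive and 9 negative values. Among the genes of at least 30 CPM, 11.9% passed, 6.29% higher and 5.58% lower, and 52.3% had a positive log2 fold change. Over all genes tested these shares were 7.00%, 3.47%, 3.53% and 49.6%. Whether the G1/S or the G2/M genes differ from these shares was not tested. An unadjusted p under 0.05 was found for 7 G1/S and 3 G2/M genes, where 19.3% of all genes tested and 28.2% of those of at least 30 CPM had one. Groups did not overlap for 9 G1/S genes that were higher and 1 that was lower, and for 3 G2/M genes that were higher and 2 that were lower. Over all genes tested, 11.5% were so separated higher and 11.2% lower, and 16.8% and 13.6% among those of at least 30 CPM. Whether the G1/S and G2/M genes differ from each other was not tested.

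Summed over their genes, the G1/S transcripts reached 7925.9, 7954.7 and 7928.4 CPM in the control libraries and 8129.4, 8096.5 and 8141.9 CPM in the NFL libraries. The NFL libraries were thus all above the control libraries, with means of 8123 ± 23.5 and 7936 ± 16.0 CPM (SD, n = 3 each). The G2/M transcripts summed to 4617.1, 4668.6 and 4697.9 CPM in the control and 4713.2, 4725.0 and 4732.4 CPM in the NFL libraries. Here the groups did not overlap after TMM scaling, with the highest control library close to the lowest NFL library. As a share of all counts, without TMM, the G2/M genes took 0.461%, 0.470% and 0.472% in the control and 0.469%, 0.470% and 0.469% in the NFL libraries, which overlap, so their separation rests on the scaling. The G1/S genes took at least 0.805% in each NFL library and less than that in each control library. No test is given for these sums, because the few most abundant genes make up much of each.

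**Figure D2:**
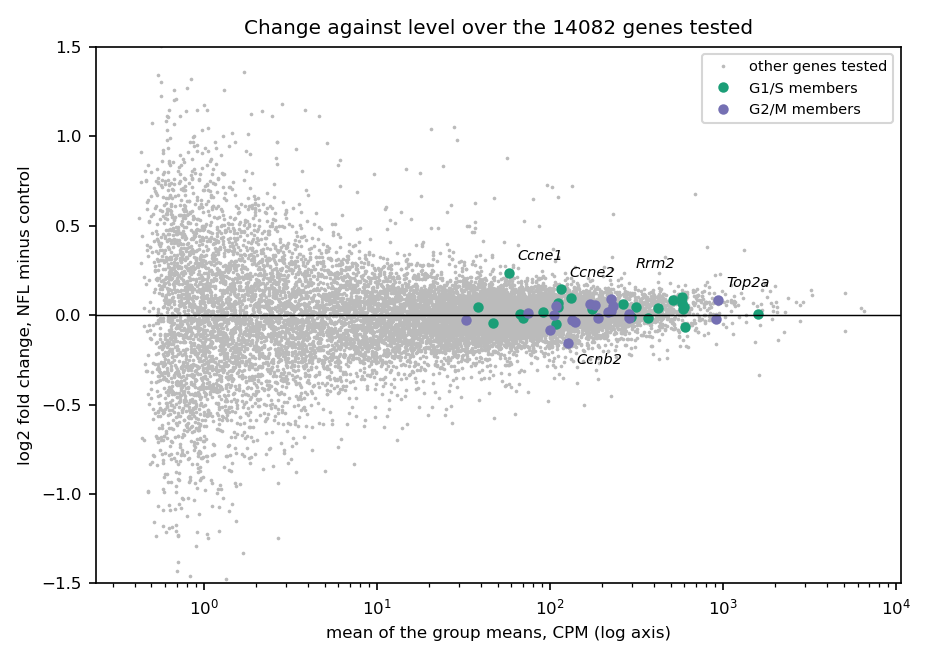
Log2 fold change (NFL minus control) against the mean of the group means in CPM (log axis) for the 14082 genes tested, 15 of which lie beyond the vertical axis. G1/S genes (green) and G2/M genes (purple) sit at 30 CPM and above, inside the cloud of other genes (grey), with the 5 genes past the test named.

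Replication licensing loads the MCM helicase, a ring of 6 related subunits, on origins. None of the 8 licensing genes passed the test, and their median log2 fold change was 0.042. Mcm2 was at 406.8, 430.6 and 403.5 CPM in the control and 421.5, 423.3 and 428.9 CPM in the NFL libraries. Mcm3 was at 505.7, 492.1 and 512.2 CPM in the control and 530.1, 537.9 and 532.0 CPM in the NFL libraries. The Mcm2 libraries overlapped, while every NFL library was above every control library for Mcm3. Mcm4 was at 304.8, 306.3 and 312.7 CPM in the control and 318.7, 310.1 and 324.6 CPM in the NFL libraries. Mcm5 was at 589.9, 599.0 and 575.3 CPM in the control and 607.4, 610.7 and 605.0 CPM in the NFL libraries. One NFL library of Mcm4 lay below the highest control library, whereas the Mcm5 groups did not overlap. Mcm6 was at 570.4, 594.3 and 575.4 CPM in the control and 608.7, 589.6 and 581.2 CPM in the NFL libraries. Mcm7 was at 285.4, 311.3 and 292.9 CPM in the control and 290.9, 290.2 and 302.3 CPM in the NFL libraries. Both overlapped between the groups. The estimates ran from -0.54% for Mcm7 to 5.92% for Mcm3 (95% interval 1.84% to 10.2%), and Mcm3, at an edgeR adjusted p of 0.063, was the nearest of the ring to the threshold.

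The loading factors Cdc6 and Cdt1 bring the ring to the origin. Cdc6 was at 131.0, 123.4 and 130.0 CPM in the control and 137.2, 131.9 and 142.6 CPM in the NFL libraries. Its groups did not overlap, and the estimate was 6.92% higher (95% interval 1.28% to 12.9%, edgeR adjusted p = 0.136). Cdt1, its partner, averaged 111 ± 9.29 CPM in the control and 107 ± 4.93 CPM in the NFL samples (SD, n = 3), with libraries that overlapped. Mcm7 shares exon bases with the genes Cops6 and Ap4m1, and how reads in the overlap were counted is not given in the sources used here.

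Fork genes copy the DNA once the helicase is active. None of the 5 passed, and their median log2 fold change was 0.0062. Pola1, the catalytic subunit of the polymerase that primes synthesis, was at 261.5, 254.9 and 264.1 CPM in the control and 270.1, 268.1 and 276.4 CPM in the NFL libraries. Every NFL library was above the control libraries, at an estimate of 4.31% (95% interval -0.14% to 8.96%, edgeR adjusted p = 0.281). Pcna, the sliding clamp that holds polymerases on DNA and a common marker of S phase, was at 384.8, 359.6 and 372.4 CPM in the control and 381.5, 358.1 and 366.6 CPM in the NFL libraries. Its groups overlapped over nearly their whole range, and the difference was -1.05% (95% interval -5.24% to 3.32%, adjusted p = 0.856). Cdc45 and Gins2, parts of the active helicase, averaged 70.7 and 66.8 CPM in the control and 70.2 and 67.1 CPM in the NFL samples. Gins2 shares 2758 exon bases with Gse1 on the opposite strand, which had 6140 counts over the 6 libraries beside 7764 of Gins2. Cdc45 shares 209 exon bases with Ufd1, and how reads in these stretches were counted is not given in the sources used here. Pole, the catalytic subunit of the leading-strand polymerase, averaged 173 and 177 CPM.

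Genes of nucleotide supply all had a positive log2 fold change, from 0.048 to 0.10, and 1 of the 4 passed. Rrm2 encodes the small subunit of ribonucleotide reductase, the enzyme that turns ribonucleotides into deoxynucleotides, and is the subunit made anew in S phase. Rrm2 (chromosome 12, 24708241 to 24714146, GRCm38) was at 564.1, 560.7 and 548.3 CPM in the control and 601.1, 605.4 and 590.8 CPM in the NFL libraries. All NFL libraries were above all control libraries. The rise was 7.43% (95% interval 3.35% to 11.7%), a log2 fold change of 0.10 with a standard error (SE) of 0.028 and an edgeR adjusted p of 0.0129. It lost significance without control replicate 3 or NFL replicate 2 (adjusted p of up to 0.0817). Rrm1, the large subunit, was at 572.4, 567.1 and 567.5 CPM in the control and 593.3, 606.9 and 592.0 CPM in the NFL libraries. These groups did not overlap either, although at an estimate of 5.00% Rrm1 did not pass (adjusted p = 0.123). Tyms, which makes thymidylate, averaged 108 and 114 CPM, and Tk1, which salvages thymidine, averaged 176 and 182 CPM, both with libraries that overlapped.

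Cyclin E, the activator of Cdk2 at the start of S phase, showed the largest rise of all 44 genes. Ccne1 (chromosome 7, 38097984 to 38107534, GRCm38) was at 54.82, 53.22 and 51.91 CPM in the control and 63.24, 62.55 and 62.76 CPM in the NFL libraries. The gap between the groups was wider than the range within either of them. Means were 53.3 ± 1.46 and 62.8 ± 0.353 CPM (SD, n = 3), a rise of 17.9% (95% interval 9.51% to 26.8%), with a log2 fold change of 0.24 (SE 0.053) and an edgeR adjusted p of 0.00199. It passed in all 14 alternative fits, with adjusted p-values from 0.00173 to 0.0175.

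The second cyclin E gene also rose. Ccne2 (chromosome 4, 11191351 to 11204779, GRCm38) was at 108.4, 115.7 and 107.2 CPM in the control and 121.8, 119.8 and 124.0 CPM in the NFL libraries. Control replicate 2 came nearest to the NFL libraries, without reaching them. The rise was 10.6% (95% interval 4.59% to 17.0%), with a log2 fold change of 0.15 (SE 0.040) and an edgeR adjusted p of 0.0163. It was lost without control replicate 1, control replicate 3 or NFL replicate 3, with adjusted p-values of up to 0.115. Ccne2 shares 609 exon bases with Ints8 on the opposite strand, which had 13704 counts over the 6 libraries beside 13339 of Ccne2. Since the use of strand is not given in the sources used here, reads from Ccne2 and Ints8 in that stretch cannot be told apart. Ints8 itself averaged 116 and 122 CPM (log2 fold change 0.074, edgeR adjusted p = 0.345).

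The other G1 cyclins and kinases did not pass. Ccnd2, the most abundant cyclin D transcript here, was at 608.2, 619.8 and 618.5 CPM in the control and 577.2, 586.7 and 598.3 CPM in the NFL libraries. All NFL libraries lay below the control libraries, and the estimate was -4.55% (95% interval -8.17% to -0.79%, edgeR adjusted p = 0.148). Ccnd1, a cyclin D gene outside the 45, had at most 7 counts in any library. Cdk6 averaged 1590 ± 23.0 and 1600 ± 16.4 CPM and Cdk4 averaged 110 ± 7.12 and 114 ± 4.12 CPM (SD, n = 3). Ccnd3 averaged 90.6 and 91.6 CPM, and Cdk2, the partner of cyclin E, averaged 37.8 and 39.1 CPM, with groups that did not overlap at an estimate of 3.26% (adjusted p = 0.773). E2f1, the only E2F activator of the list with reads, was at 46.90, 49.58 and 47.08 CPM in the control and 44.48, 47.09 and 47.18 CPM in the NFL libraries. These groups overlapped, with an estimate of -3.10% (95% interval -10.7% to 5.11%, adjusted p = 0.753). Exons of Cdk4, Ccnd3 and Cdk6 overlap those of Tspan31, Bysl and Gm17590.

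**Figure D3:**
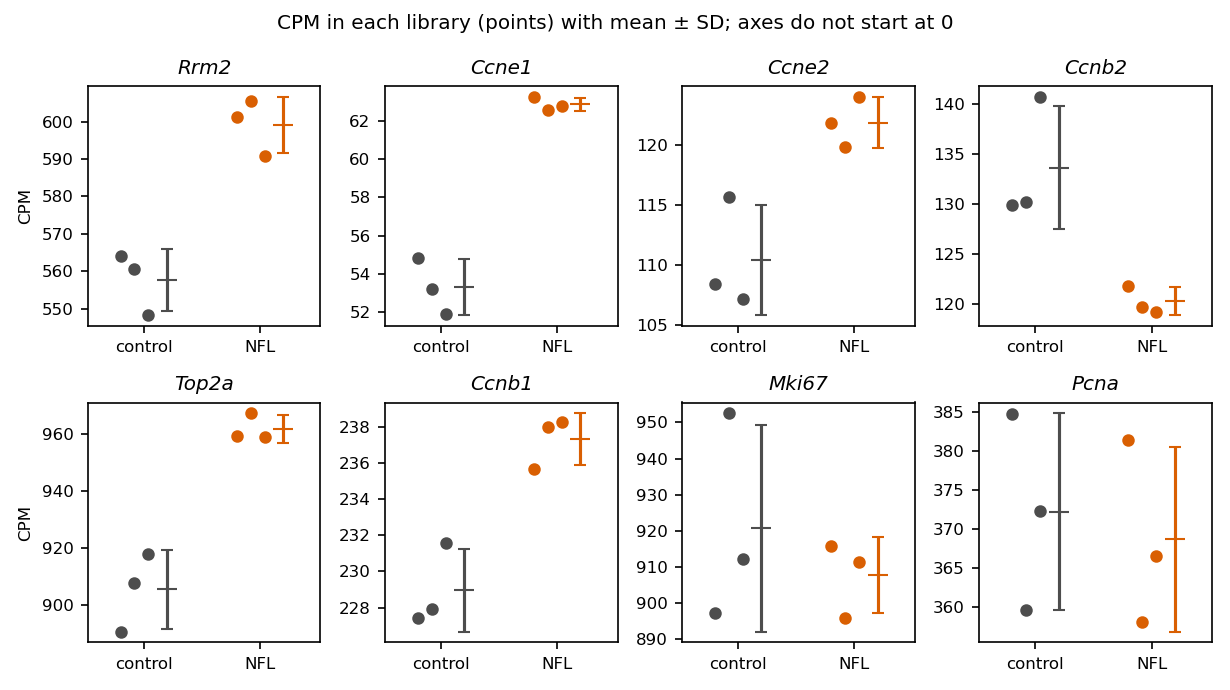
CPM in each library of the 5 genes past the test and of Ccnb1, Mki67 and Pcna (vertical axes do not start at 0), with points for the 3 libraries of a group and bars for the mean ± SD. The groups are apart for the first 6 genes, with NFL below control only for Ccnb2, and overlap for Mki67 and Pcna.

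Among the 5 genes of mitotic entry, 1 passed the test, the B-type cyclin Ccnb2, while the estimate of the other B-type cyclin of the list, Ccnb1, had the opposite sign. Ccnb2 (chromosome 9, 70407692 to 70421547, GRCm38) was at 129.9, 130.2 and 140.7 CPM in the control and 121.8, 119.7 and 119.2 CPM in the NFL libraries. Every NFL library was below every control library, and the control group spread more widely because of replicate 3. The fall was from 134 ± 6.19 to 120 ± 1.40 CPM (SD, n = 3), a change of -10.1% (95% interval -14.9% to -5.04%), with a log2 fold change of -0.15 (SE 0.040) and an edgeR adjusted p of 0.00833. It was lost without control replicate 3 or NFL replicate 3, with adjusted p-values of up to 0.109.

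Ccnb1, the cyclin B gene that is required for mitosis in the mouse, was at 227.4, 227.9 and 231.6 CPM in the control and 235.7, 238.0 and 238.3 CPM in the NFL libraries. All NFL libraries were above the control libraries, in the direction opposite to Ccnb2. The estimate was 3.63% (95% interval -0.85% to 8.31%), and it did not pass (edgeR adjusted p = 0.406). Per length of the principal transcript, the ratio of Ccnb2 to Ccnb1 was 0.928, 0.928 and 0.988 in the control and 0.840, 0.818 and 0.813 in the NFL libraries. This ratio was chosen after the values were seen, so it is given without a test. Ratios of other related pairs were taken as well. Those of Ccne1 to Ccne2, Rrm2 to Rrm1 and Cdc25a to Cdc25b did not overlap between the groups either. Those of Cdk6 to Cdk4 and Ccnd2 to Ccnd3 overlapped. The processed pseudogenes Ccnb1-ps and Ccnb2-ps had 71 and 303 counts over the 6 libraries, against 26981 for Ccnb1 and 14832 for Ccnb2.

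Cdk1, the kinase that both B-type cyclins activate, was at 140.6, 135.6 and 129.2 CPM in the control and 131.2, 129.3 and 137.4 CPM in the NFL libraries. The groups overlapped, with a difference of -1.85% (95% interval -7.05% to 3.64%, edgeR adjusted p = 0.787). Ccna2, the cyclin of S and G2 phase, averaged 285 and 286 CPM, and Cdc25c, a phosphatase that activates Cdk1, averaged 33.1 and 32.6 CPM.

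Of the mitotic kinases and the chromosomal passenger complex, none of 4 passed. Birc5 (survivin), the subunit that targets Aurora B to the centromere, was at 220.1, 219.8 and 219.5 CPM in the control and 227.6, 232.6 and 241.0 CPM in the NFL libraries. The control libraries were almost identical and all NFL libraries were above them. The estimate was 6.35% higher (95% interval 1.65% to 11.3%), with an edgeR adjusted p of 0.0911. Aurkb, the kinase of that complex, averaged 106 CPM in both groups, and Aurka, which acts at the spindle poles, averaged 107 and 111 CPM. Plk1, the Polo kinase, averaged 142 and 138 CPM.

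Kinetochore and checkpoint genes, spindle motors and APC/C genes held no gene past the test. Bub1, a checkpoint kinase, was at 162.5, 164.9 and 171.8 CPM in the control and 174.6, 176.1 and 171.4 CPM in the NFL libraries. Only the highest control and the lowest NFL library crossed, at an estimate of 4.55% (95% interval -0.41% to 9.77%, edgeR adjusted p = 0.319). Bub1b averaged 191 and 189 CPM, Cenpe 224 and 228 CPM and Cenpf 216 and 219 CPM. Kif23, a motor of the central spindle needed in cytokinesis, was at 101.6, 99.41 and 106.8 CPM in the control and 96.10, 98.94 and 95.95 CPM in the NFL libraries. Its NFL libraries were all below its control libraries, by an estimate of -5.63% (95% interval -11.0% to 0.10%, adjusted p = 0.272), whereas Kif11, the motor that separates the spindle poles, averaged 290 and 287 CPM. Cdc20, the activator of the APC/C, was at 179.3, 179.0 and 180.6 CPM in the control and 194.5, 188.5 and 178.6 CPM in the NFL libraries. NFL replicate 3 lay below the control libraries and the other two above them, at an estimate of 4.14% (95% interval -0.78% to 9.31%, adjusted p = 0.380). Ube2c, an enzyme that loads ubiquitin for the APC/C, averaged 74.2 and 75.0 CPM.

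Top2a and Mki67, both of which act on mitotic chromosomes and serve as proliferation markers, had similar counts. Top2a passed the test and Mki67 did not, and the difference between them was not tested. Top2a (topoisomerase II alpha, which untangles sister chromatids; chromosome 11, 98992943 to 99024189, GRCm38) was at 890.9, 908.0 and 918.0 CPM in the control and 959.1, 967.1 and 958.7 CPM in the NFL libraries. The groups did not overlap. The rise was 6.19% (95% interval 2.37% to 10.1%), with a log2 fold change of 0.087 (SE 0.026) and an edgeR adjusted p of 0.0318. It was the least stable of the 5 calls, lost when libraries were scaled by size alone and without control replicate 1 or any one of the 3 NFL replicates, with adjusted p-values of up to 0.124. Mki67, the gene of the Ki-67 antigen that coats mitotic chromosomes, was at 897.3, 952.5 and 912.1 CPM in the control and 915.8, 895.8 and 911.3 CPM in the NFL libraries. Its groups overlapped, with means of 921 ± 28.6 and 908 ± 10.5 CPM (SD, n = 3). The difference of -1.37% had a 95% interval of -5.04% to 2.43% (adjusted p = 0.772), so a fall of more than 5.04% lies outside it.

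Levels per transcript length (RPKM, reads per kilobase of the principal GENCODE transcript, scaled to library size) place the genes in order of abundance. The order depends on this choice of length, because all exons of a gene together can be longer. Birc5 has 3402 such bases against 947 in its principal transcript, and Top2a 9013 against 5221, while Mki67 has 10061 in both. Levels by these other lengths are not given. In the control samples, Rrm2 (254 ± 3.79 RPKM), Pcna (245 ± 8.32) and Birc5 (232 ± 0.274) were highest. The libraries of Rrm2 and Pcna overlapped, whereas Birc5 lay below both in every control library. Mcm6 (199), Mcm5 (174), Top2a (173) and Mcm3 (166) followed. Top2a and Mcm5 did not differ beyond their spread. Mki67, which matched Top2a in CPM, stood at 91.5 ± 2.84 RPKM, because its transcript of 10061 bases is longer than the 5221 bases of Top2a. Cdk6, the highest in CPM, stood at 138 ± 1.99 RPKM. Cyclin transcripts ran from Ccnd2 (97.2 ± 0.999 RPKM), Ccna2 (96.1 ± 2.58) and Ccnb1 (92.0 ± 0.921) over Ccnb2 (87.3 ± 4.04) and Ccnd3 (42.9 ± 1.52) to Ccne2 (36.7 ± 1.52) and Ccne1 (26.7 ± 0.730). The first 2 of these cyclins did not differ beyond their spread. At the lower end, E2f1 (17.5 ± 0.549), Gins2 (17.1 ± 0.628), Cdc25c (17.0 ± 0.932) and Cdk2 (16.9 ± 0.553) did not differ beyond their spread. Thus the 5 genes past the test came from the top (Rrm2, Top2a), the middle (Ccnb2) and the lower part (Ccne2, Ccne1) of the order.

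**Figure D4:**
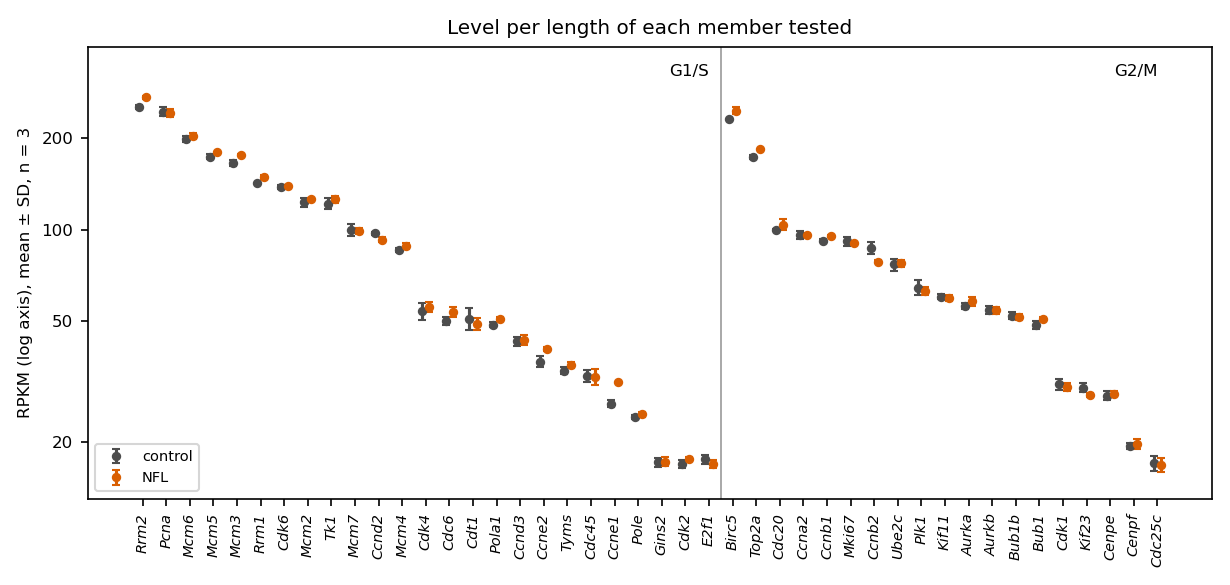
RPKM per principal transcript (log axis) of the 44 genes tested, as mean ± SD of 3 libraries, with G1/S genes left and G2/M genes right, each in order of the mean level over all 6 libraries. Levels in the control samples run from 254 RPKM of Rrm2 to 16.9 RPKM of Cdk2, and the 2 groups lie close together beside this range.

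Promoter sequence is what the G1/S and G2/M genes are best known to differ by: E2F sites are typical of the first, and CCAAT boxes with a cell cycle genes homology region (CHR) of the second. RefSeq windows of 300 bases (GRCm38.p6, 250 before to 50 after the transcription start) were given for 37 of the 45 genes. Mcm4, Gins2, Pole, Ccnd2, Ccne2, Ccna2, Cdc25c and Aurkb had no entry. Each window was searched on both strands. The E2F core was taken as TTCCCGC and, as its other form, TTGGCGC, and the reverse complement of the latter can overlap a CCAAT box. The CHR was taken as TTTGAA and, as its other form, TTCGAA. The TATA box was taken as TATAAA. The E2F core was matched in 47.6% of 21 G1/S genes, in 18.8% of 16 G2/M genes and in 7.79% of all 27025 genes with a window. CCAAT was matched in 61.9%, 93.8% and 41.1%, and the CHR in 19.0%, 81.2% and 21.7%. TATAAA was matched in 2 G1/S genes and no G2/M gene, against 15.7% of all genes. A match is a description of these letters and no evidence that a factor binds there in these cells. A missing match concerns only these exact letters in the window, and is no evidence that a gene lacks such a site.

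The upstream parts of 5 windows are printed, for the 4 genes past the test that have an entry and for Ccnb1 as the counterpart of Ccnb2. Bases inside the gene's GENCODE M21 model are left out, the strand is that of the gene, and capitals mark matches to the motifs.
Rrm2, chr12:24708004-24708240 (+): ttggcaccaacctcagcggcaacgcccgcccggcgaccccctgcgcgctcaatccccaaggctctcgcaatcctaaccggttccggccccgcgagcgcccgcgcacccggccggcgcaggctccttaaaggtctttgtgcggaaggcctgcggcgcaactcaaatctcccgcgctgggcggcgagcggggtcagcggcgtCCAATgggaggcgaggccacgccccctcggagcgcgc
Ccne1, chr7:38107535-38107740 (-): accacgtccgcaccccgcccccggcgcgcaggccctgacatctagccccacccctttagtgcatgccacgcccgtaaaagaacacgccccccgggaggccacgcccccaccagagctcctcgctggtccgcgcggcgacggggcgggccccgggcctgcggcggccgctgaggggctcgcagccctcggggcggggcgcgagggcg
Ccnb2, chr9:70421555-70421804 (-): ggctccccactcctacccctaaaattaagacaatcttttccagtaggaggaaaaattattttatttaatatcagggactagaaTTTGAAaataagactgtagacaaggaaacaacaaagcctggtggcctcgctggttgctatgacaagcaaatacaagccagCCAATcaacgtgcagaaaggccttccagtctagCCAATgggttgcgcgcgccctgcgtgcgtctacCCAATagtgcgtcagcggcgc
Ccnb1, chr13:100786571-100786736 (-): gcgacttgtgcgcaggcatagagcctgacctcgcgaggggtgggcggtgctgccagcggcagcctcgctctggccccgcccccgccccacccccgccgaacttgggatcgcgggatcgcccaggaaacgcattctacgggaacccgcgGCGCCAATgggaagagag
Top2a, chr11:99024190-99024439 (-): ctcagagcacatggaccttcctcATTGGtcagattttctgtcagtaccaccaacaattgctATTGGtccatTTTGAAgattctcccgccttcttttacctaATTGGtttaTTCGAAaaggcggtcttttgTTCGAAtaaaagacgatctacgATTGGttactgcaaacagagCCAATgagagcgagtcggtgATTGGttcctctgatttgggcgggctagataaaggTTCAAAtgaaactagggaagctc
The 2 cyclin B windows differ: Ccnb2 holds CCAAT at -87, -54 and -21 from the start and a CHR at -167 and 5, while Ccnb1 holds an E2F core at -102 that overlaps a CCAAT at -99, a further CCAAT at -67 and no CHR. Top2a, which rose, holds 6 CCAAT or reverse-complement matches and 4 CHR matches, more than Ccnb2, which fell. Rrm2 holds 1 CCAAT at -50, and the Ccne1 window holds no match to the 4 motifs as searched.

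**Figure D5:**
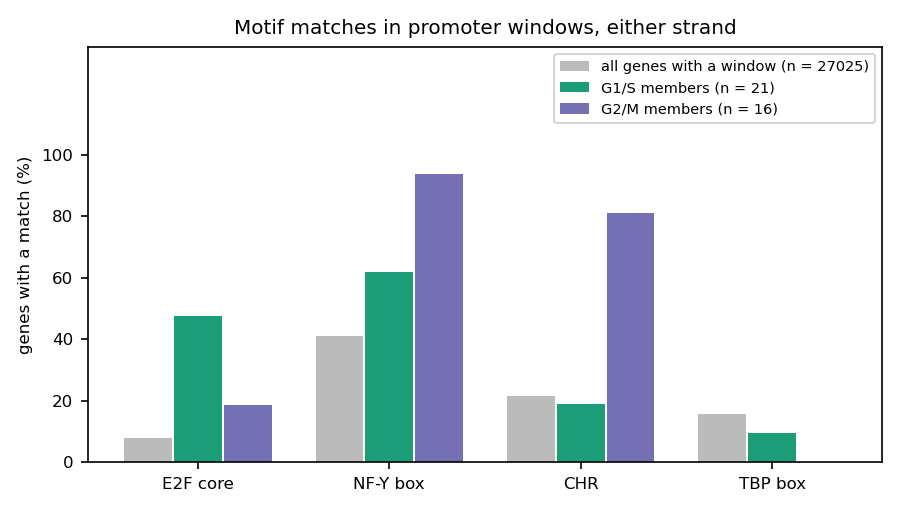
Percentage of genes whose RefSeq promoter window holds at least 1 match on either strand (vertical axis), for all genes with a window, 21 G1/S genes and 16 G2/M genes; the NF-Y box is CCAAT and the TBP box is TATAAA. The G1/S bar is highest for the E2F core (47.6%) and the G2/M bar for the NF-Y box (93.8%) and the CHR (81.2%).

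A wider list of 150 replication and cell cycle genes, none of them among the 45, was read in the same way. Of the 147 tested, 6 (4.08%) passed, 4 higher and 2 lower, where 7.00% of all genes passed. Of the 147, 138 had a mean of at least 30 CPM and held all 6, at a level where 11.9% of genes passed. The difference from other genes was not tested, and the median log2 fold change was 0.022. Orc6, a subunit of the origin recognition complex, rose from 64.1 to 72.6 CPM (log2 fold change 0.18, edgeR adjusted p = 0.0143). Atr, the kinase that signals stalled forks, rose from 102 ± 2.60 to 115 ± 5.42 CPM (0.18, adjusted p = 0.00416). Of the Cdc25 phosphatases that remove inhibitory phosphates from cyclin-dependent kinases, Cdc25a rose from 244 to 264 CPM (0.11, adjusted p = 0.0274) and Cdc25b fell from 175 to 162 CPM (-0.12, adjusted p = 0.0310). Ncapd2, a subunit of condensin I, which compacts mitotic chromosomes, fell from 269 ± 3.98 to 247 ± 2.97 CPM (SD, n = 3; -0.13, adjusted p = 0.00554). The calls of Orc6, Atr and Ncapd2 were lost without NFL replicate 3, that of Orc6 also without control replicate 1, that of Cdc25a in 5 of the 14 alternative fits and that of Cdc25b in 6. Orc6 shares exon bases with Vps35 on the opposite strand, whose adjusted p was 0.733.

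By role, the genes past the test in the wider list were 1 of 11 for origins and licensing, 1 of 30 for fork and synthesis, 1 of 11 for checkpoint and repair in S phase, 1 of 17 for G1 regulators, 1 of 16 for mitotic entry and exit and 1 of 13 for condensin and cohesin. None of 23 spindle checkpoint and kinetochore genes and none of 26 spindle and cytokinesis genes passed in edgeR. Over all genes tested 7.00% passed, and 11.9% of those of at least 30 CPM. Whether any role differs from these shares was not tested. In each of the spindle lists, 4 genes had an unadjusted edgeR p under 0.05. Such a p was found for 19.3% of all genes tested and 28.2% of those of at least 30 CPM.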

How the data were processed

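Bulk RNA of 6 samples, 3 per group, was measured by sequencing of poly(A)-selected libraries. The authors deposited raw, whole-number read counts per gene with no normalization and no pooling. The submitters' processing notes name GRCm39, R 4.2.1 and limma 3.54.2 without a role. Aligner, counter and strand are not given in the sources used here. Identifier versions of 54349 of 55401 genes were identical to GENCODE M21 (GRCm38), including all 45 genes reported, so coordinates and transcript lengths come from it. The number of columns without a sample was 0, and 55141 identifiers had a symbol.

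Genes were kept by filterByExpr (minimum count 10, minimum total 15), scaled by TMM and tested over all 14082 kept with glmQLFTest of edgeR 4.0.16 (R 4.3.3, Benjamini-Hochberg, threshold 0.05). No covariates were used, since the paper's methods state no gene-by-gene test or covariate for these counts. SE is the log2 fold change over the root of F, and intervals are 95%. The biological coefficient of variation was 3.48% (from the common dispersion). CPM values use TMM-scaled library sizes, and RPKM values the APPRIS principal transcript. With 3 samples a group, the smallest two-sided p of an exact permutation test is 0.1. Floors on counts cover counting error only, while the intervals of fold changes include the spread between samples. The procedure was tested on simulated data.

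The genes, roles, wider list and markers were chosen with earlier results of these data known. All 45 genes may be named, with values per library for genes past the threshold, for the largest change in each role and for Mki67, Top2a, Pcna, Cdk1, Ccnb1 and Mcm2 to Mcm7, and genes of the wider list only where they passed. A withheld result is not reported here, although counts over lists include it. Alternatives were DESeq2 1.42.0 size factors and Wald test, library size alone, no filter, at least 10 counts in every sample, a replicate block, counts thinned to the smallest library (seed 11), limma-voom (limma 3.58.1), each replicate left out, and thresholds of 0.1 and 0.01. Promoter sequences are from RefSeq. Figures were drawn with matplotlib 3.10.9. Other experiments of the study were not used here.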

Additional observations from a re-analysis of the deposited data

How the results depend on the processing

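Of 700 combinations of a gene (the 44 tested and the 6 of the wider list past the threshold) and an alternative fit, 630 kept their direction and side of the threshold, 33 lost the threshold, 3 gained it and 34 changed sign, and none of the 34 was past 0.05. The 11 genes past the threshold kept their sign in all 14 fits. Mcm3 passed with thinned counts, DESeq2 and limma-voom (lowest adjusted p 0.0388). The number of replication and mitosis genes past the threshold, 5, was 4 to 6 in the alternatives that keep all samples and 2 to 5 with a replicate left out. It was 7 at a threshold of 0.1 and 2 at 0.01. For G1/S genes (3), it was 1 to 3 with a replicate left out and 1 at 0.01. For G2/M genes (2), it was 1 with library size alone, 0 to 2 with a replicate left out, 3 at 0.1 and 1 at 0.01. For the wider list (6), it was 4 with no filter, 0 to 8 with a replicate left out, 13 at 0.1 and 2 at 0.01. Over all genes (986), it was 508 to 966 with a replicate left out, 1405 at 0.1, 500 at 0.01 and 731 with DESeq2.

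Library size alone moved the median log2 fold change of G1/S genes from 0.0435 to 0.0298 (0.0309 to 0.047 with a replicate left out), that of G2/M genes from 0.0051 to -0.0089 (0.0026 to 0.0156), and gave a median of -0.0148 over all genes. It turned the sign of Gins2 (-0.0076), Cdk6 (-0.0053), Ccna2 (-0.0089) and Ube2c (-0.0019), and thinning that of Cdc45 (0.0216), Gins2 (-0.0094) and Ube2c (-0.0009), for causes not tested. With a replicate left out, signs turned for Mcm7 (-0.033 to 0.029), Cdt1 (-0.1016 to 0.0137), Cdc45 (-0.0624 to 0.0213), Gins2 (-0.0237 to 0.0367), Pcna (-0.0378 to 0.0116), Ccnd3 (-0.0098 to 0.0454), Cdk1 (-0.0614 to 0.0067), Ccna2 (-0.0186 to 0.0209), Cdc25c (-0.0629 to 0.0173), Aurkb (-0.0172 to 0.0239), Bub1b (-0.0325 to 0.0017), Kif11 (-0.0328 to 0.0055), Ube2c (-0.0064 to 0.0534) and Mki67 (-0.0363 to 0.0071).

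The groups share replicate numbers 1 to 3. Deviations of same-numbered samples correlated over genes at only 0.00742 to 0.0148, and those of differently numbered samples at -0.016 to 0.00332. Whether the numbers pair the samples was not tested. With the replicate number as a block, 5 of the 44 genes and 1049 of all genes passed, as against 5 and 986 without it.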
